A study of Mus musculus with 6 samples.

Results

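The receptor activity-modifying proteins (*Ramp1*, *Ramp2* and *Ramp3*), the calcitonin-family receptors *Calcrl* and *Calcr*, and the ligand gene *Adm* were examined in WT and RORγt N275D Th17 cells. These 6 genes were picked out by symbol from the 16244 genes of the table, and 6 of 6 were found. The family was proposed because *Ramp3* had already been seen to be much higher in the N275D cells of this same comparison. The differences of the 6 genes between genotypes are therefore given as a description, without p-values. The measurement was RNA-seq of 3 WT and 3 RORγt N275D libraries, hereafter N275D, all from spleen CD4+ T cells that were naive when isolated. According to the methods, the cells were cultured for 3 days with antibodies to CD3 and CD28 under pathogenic Th17 conditions. The series text names IL-6, IL-1β and IL-23 as the cytokines, whereas the methods add IL-23 and IL-1β to a mix of TGF-β, IL-6 and antibodies to IL-4 and IFN-γ. WT cells came from wild-type mice, and N275D cells from CRISPR-Cas9 knockin mice on a C57BL/6 background. Per the methods, the wild-type C57BL/6 mice of the study were bought (C57BL/6NJ in the list of resources), and the knockin mice came from another source. Whether the WT donors of these libraries were the bought mice is not stated. Neither whether the knockin donors were homozygous nor whether donors were littermates is stated for these libraries. The general age of mice in the study was 6 to 12 weeks. Because the libraries are bulk RNA, fewer cells that make a transcript and less of it per cell cannot be told apart.

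RAMPs are small proteins with a single membrane-spanning stretch that attach to certain G protein-coupled receptors and set which peptide those receptors recognize. CALCRL carried by RAMP1 is the receptor for calcitonin gene-related peptide (CGRP), a neuropeptide of sensory nerves, whereas CALCRL with RAMP2 or RAMP3 responds best to adrenomedullin, a vasodilator peptide. CALCR binds calcitonin alone and forms amylin receptors with RAMPs. All these receptors signal mainly through Gs and cyclic AMP, and CALCRL with RAMP2 is best known from blood and lymph vessel endothelium.

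The upstream sequences of *Ramp3*, *Calcrl* and *Ramp1* are shown because *Ramp3* and *Calcrl* differed in opposite directions, while *Ramp1*, the other co-receptor with detectable reads, overlapped between genotypes. They are RefSeq sequences of GRCm38.p6 (the build mm10), read 5′ to 3′ on the strand of the gene, and stop before the annotated gene. Capitals mark the core letters ACGTG or GCGTG of the hypoxia response element, to which HIF binds, on either strand.
Ramp3 (chr11:6658283-6658505, plus strand): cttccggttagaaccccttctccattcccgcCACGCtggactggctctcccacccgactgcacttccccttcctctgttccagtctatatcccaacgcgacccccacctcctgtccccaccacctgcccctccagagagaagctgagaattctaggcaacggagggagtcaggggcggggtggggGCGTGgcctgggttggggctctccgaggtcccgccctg
Calcrl (chr2:84425406-84425516, minus strand): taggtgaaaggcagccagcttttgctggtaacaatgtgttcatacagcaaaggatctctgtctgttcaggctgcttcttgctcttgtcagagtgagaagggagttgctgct
Ramp1 (chr1:91179572-91179821, plus strand): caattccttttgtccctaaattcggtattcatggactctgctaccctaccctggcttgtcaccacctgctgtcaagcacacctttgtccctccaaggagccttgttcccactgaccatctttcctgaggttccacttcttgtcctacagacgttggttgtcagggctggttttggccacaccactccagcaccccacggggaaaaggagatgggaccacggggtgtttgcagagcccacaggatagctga

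Short motifs were searched on both strands of the whole windows, from 250 bases before to 50 bases after a transcript start. *Ramp3* held GCGTG at 2 places, at bases -219 to -215 on the other strand and at bases -65 to -61 on the strand of the gene. The window of *Calcrl* held it once, at bases 22 to 26 after the start, and that of *Ramp1* did not hold it. *Adm* held GCGTG at 2 places on the other strand, at -90 to -86 and -54 to -50. Of 32851 mouse promoter windows, 43.8% held ACGTG or GCGTG at least once, so the letters are common. Windows with 2 places were not counted apart, so the 2 places have no share to be read against. AGGTCA, the half-site that ROR proteins bind, was in none of the windows of these genes and in 16.3% of all windows. TGACG, the half-site of the cyclic AMP response element and part of the full element TGACGTCA, was in 20.8% of all windows, and in those of *Ramp1* and *Calcr*. A match of letters is a description and shows no binding.

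Reads on genes ranged from 17659035 to 18510878 per library, and the deposited values are reads multiplied by 1 factor per library. They were put on the log2 scale after adding 1, which understates the differences of low genes, and limma was fitted to 11908 genes, those whose mean reached 10 normalized reads. A gene was called at an adjusted p under 0.05 (Benjamini-Hochberg over all genes tested), which held for 50.9% of the genes tested. Calls that also reached 2-fold made up 3.59%, and the 3 libraries of one genotype all lay outside the range of the other in 57.7%. No exact permutation test on 3 libraries per genotype can reach a two-sided p under 0.1. Of the 9 Th17 and CD4 T cell markers, 8 had values, and all 8 were well detected in both genotypes, with summed normalized reads of 75444 to 79580 in WT and 87625 to 88703 in N275D libraries, 5 of them called higher and 3 lower. WT replicate 3 stood farthest from its group, at 5.11 and 5.67 times counting noise against the other WT libraries, where the remaining pairs within a genotype gave 1.61 to 2.02.

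*Ramp3*, on chromosome 11 (6658506 to 6677478), was the member with the large difference. The WT libraries had 92.9, 109 and 111 normalized reads, and the N275D libraries had 712, 743 and 696. The lowest N275D library was 6.27 times the highest WT library, and the replicates of each genotype lay close together. The WT mean was 104 ± 9.93 and the N275D mean 717 ± 24.0 normalized reads (SD, n = 3 each), which is 6.88-fold. The SD was about what counting alone gives, 10.2 in WT and 26.7 in N275D cells. On the log2 scale the difference was 2.77 (standard error, SE, 0.08), and 9 of the 11908 genes tested had a larger increase.

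*Ramp1*, on chromosome 1 (91179822 to 91225196), encodes the co-receptor that makes CALCRL a CGRP receptor, and it was detected at a low level in every library. Its normalized reads were 25.2, 24.2 and 26.5 in WT and 27.0, 28.1 and 25.7 in N275D cells, so that the genotypes overlapped. The log2 difference of *Ramp1* was 0.08 (SE 0.20), and it became -0.13 under quantile normalization. This standard error draws on the spread of genes of similar level as well as on that of *Ramp1*. The replicates of *Ramp1* itself lay closer together than counting alone gives. *Ramp1* rests on few reads, 76 in the WT libraries together and 81 in the N275D libraries. *Ramp2*, on chromosome 11 (101246334 to 101248250), whose product makes CALCRL an adrenomedullin receptor in endothelium, had 1 read in WT replicate 1, 1 read in N275D replicate 1 and 0 reads in the other libraries. An exact 95% Poisson interval, which covers counting error only, allowed up to 5.57 reads over the 3 libraries of either genotype. At this depth *Ramp2* was at or under the limit that a count of 0 allows, which is 3 reads per library, and no fold was computed.

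*Calcrl*, the receptor that all of these co-receptors can accompany (chromosome 2, 84330626 to 84425405), was well detected in every library. It had 1472, 1502 and 1308 normalized reads in WT and 1157, 1155 and 1279 in N275D libraries. Every N275D library was below every WT library, but the gap between the nearest pair, the third replicates of both genotypes, was only 29.5 normalized reads. The mean was 1427 ± 104 in WT and 1197 ± 71.1 in N275D cells (SD, n = 3 each), a log2 difference of -0.25 (SE 0.06). The SD of *Calcrl* exceeded the counting SD, which was 37.8 in WT and 34.5 in N275D cells. *Calcr*, the calcitonin receptor (chromosome 6, 3685678 to 3764713), had 0, 2 and 1 reads in the WT libraries and 0 in each N275D library. Its sum of 3 reads in WT has an exact Poisson interval of 0.619 to 8.77, and 0 in the N275D allows up to 3.69, so no difference was detectable. *Calcrl* was therefore the only one of these 2 receptors that was detected above the limit.

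*Adm*, the gene for adrenomedullin (chromosome 7, 110627657 to 110629820), was near the lower limit of the test. It had 10.1, 16.1 and 5.89 normalized reads in WT and 17.97, 12.04 and 15.8 in N275D libraries, and the genotypes overlapped. The mean was 10.7 ± 5.15 in WT and 15.3 ± 3.001 in N275D cells (SD, n = 3 each). The log2 difference was 0.55 (SE 0.35), and it ranged from 0.22 without WT replicate 3 to 0.88 without WT replicate 2. Of the 6 members, 4 passed the filter on low values and 2, *Ramp2* and *Calcr*, did not. Among these 4, 2 had genotypes that did not overlap, *Ramp3* and *Calcrl*. This count comes from the comparison that the family was proposed from and is read against 57.7% of all genes tested only as a description.

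**Figure D1:**
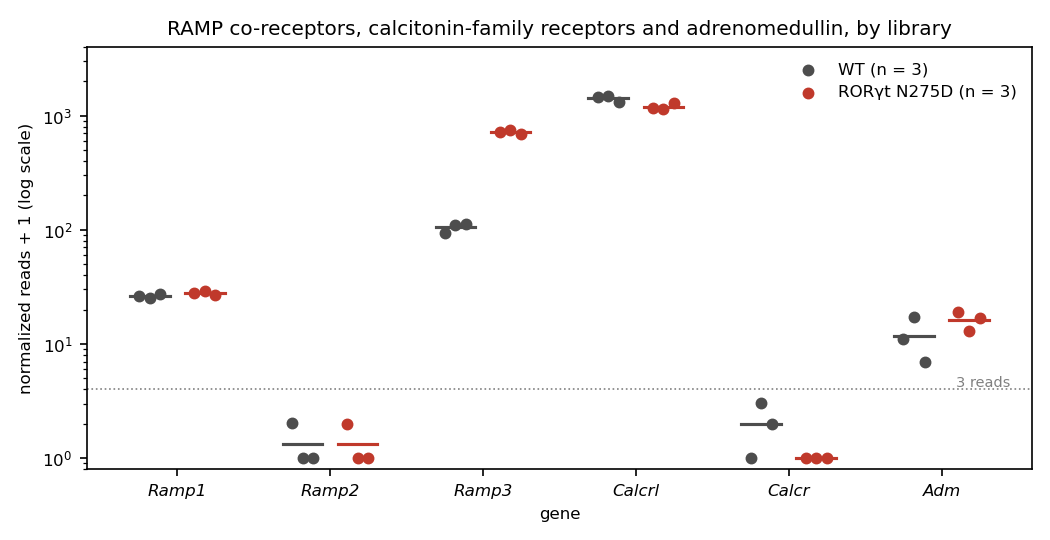
Normalized reads plus 1 (log axis) of the 6 genes in each WT library (grey) and each RORγt N275D library (red), with a bar at the mean of 3 libraries and a dotted line at about 3 reads. *Ramp3* is the only gene with a wide gap between genotypes (highest WT library 111, lowest N275D library 696), *Calcrl* shows a narrow one, *Ramp1* and *Adm* overlap, and *Ramp2* and *Calcr* lie under the line.

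To set the receptor beside its co-receptors, normalized reads were divided by the exon length of each gene in GENCODE M21, 4.882 kb for *Calcrl*, 1.38 kb for *Ramp3*, 3.022 kb for *Ramp1* and 3.301 kb for *Ramp2*. In WT cells *Calcrl* stood at 292 ± 21.3 normalized reads per kb, *Ramp3* at 75.6 ± 7.20, *Ramp1* at 8.38 ± 0.383, *Adm* at 6.61 ± 3.18 and *Ramp2* and *Calcr* at 0.516 or less in every library (SD, n = 3). In that order the ranges of *Ramp1* and *Adm* overlapped, and those of the other neighbours above *Ramp2* did not. In N275D cells *Ramp3* stood first, at 520 ± 17.4 normalized reads per kb, followed by *Calcrl* at 245 ± 14.6, *Adm* at 9.43 ± 1.85 and *Ramp1* at 8.90 ± 0.399 (SD, n = 3 each). *Adm* and *Ramp1* again overlapped. Among the 15430 genes with a length, 53.3% lay below *Ramp3* per kb in WT cells and 88.5% in N275D cells, and for *Calcrl* the shares were 79.0% and 76.1%.

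The level of *Ramp3* per kb divided by that of *Calcrl* per kb was 0.223, 0.257 and 0.300 in the WT libraries. It was 2.18, 2.28 and 1.93 in the N275D libraries, so the co-receptor transcript was the scarcer one in every WT library and the more abundant one in every N275D library. The mean ratio in N275D cells was 8.18 times that in WT cells, and this factor does not depend on the lengths used. With the longest coding transcripts as lengths, the mean ratios were 0.291 in WT and 2.38 in N275D cells. *Ramp3* made up 89.9% ± 1.13 of the reads per kb of the 3 RAMPs in WT and 98.3% ± 0.0505 in N275D cells, and *Ramp1* made up 10.02% ± 0.904 and 1.68% ± 0.0239 (SD, n = 3 each). *Ramp3* was thus the main RAMP transcript in both genotypes, and *Ramp1* per kb was at 0.0288 of *Calcrl* in WT and 0.0365 in N275D cells. These are RNA levels, and no receptor protein or complex was measured.

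**Figure D2:**
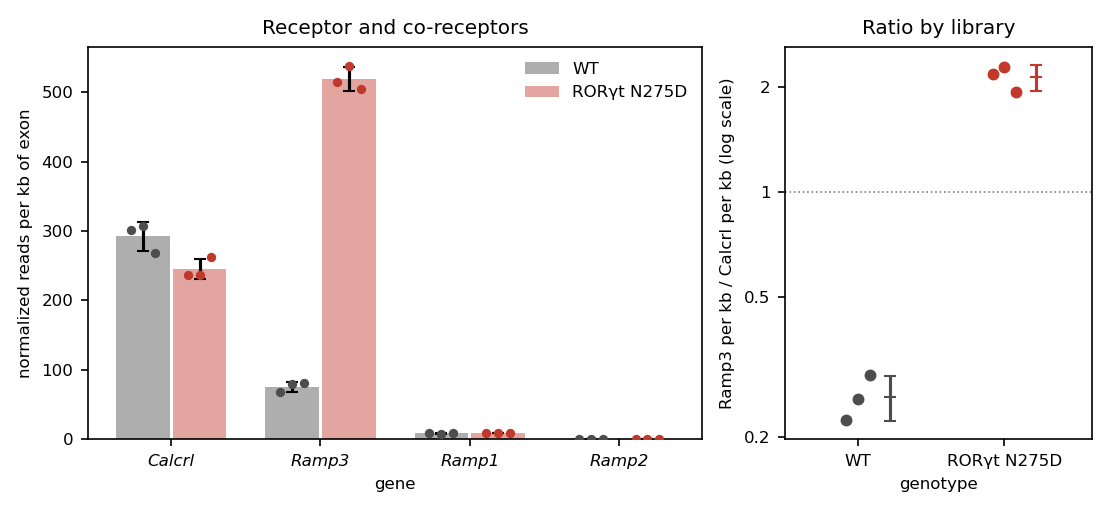
Left, normalized reads per kb of exon for *Calcrl*, *Ramp3*, *Ramp1* and *Ramp2* in WT (grey) and RORγt N275D (red) cells, as mean (bars), SD (error bars, n = 3) and single libraries (points). Right, the ratio of *Ramp3* per kb to *Calcrl* per kb in each library on a log axis, with mean and SD beside the points: WT libraries lie at 0.223 to 0.300, and N275D libraries at 1.93 to 2.28, above the dotted line at 1.

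Markers of other cell types were set beside these values. Of 8 endothelial markers, *Cdh5* and *Emcn* were not analysed here, *Kdr*, *Tie1*, *Tek* and *Vwf* had means under 10 normalized reads, and *Pecam1* (called higher, and also expressed by T cells) and *Egfl7* (called lower) made up nearly all of the sum. *Vwf* had 0.982 to 3.03 normalized reads in WT and 4.99 to 9.88 in N275D libraries, while *Kdr* and *Tie1* had at most 1 read in any library. The sum over the list was 437 to 503 normalized reads in WT and 507 to 573 in N275D libraries. Over all genes tested, 24.7% were called higher and 26.1% lower. The summed 7 B cell markers were 173 to 183 in WT and 270 to 328 in N275D libraries, with *Ms4a1* under the filter. Of the 6 tested, 5 were called higher and 0 lower, and *Cd79b* overlapped between genotypes. The 7 myeloid markers summed to 94.9 to 119 and 108 to 137, which overlapped, with 3 tested and 1 called in each direction. Dendritic cell markers, 4 of 6 with values, summed to 52.5 to 77.6 and 83.0 to 102, with *Flt3* the single call among the 2 tested. Markers of CD8 T and natural killer cells, 5 of 6 with values, summed to 201 to 216 and 284 to 325. Of the 4 tested, 3 were called higher, and *Cd8a* overlapped between genotypes. Of the gamma delta T cell markers only *Sox13* had values, 18.2 to 31.4 in WT and 35.1 to 38.5 in N275D libraries. The part of such cells in the difference of *Ramp3* was not tested.

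The ligands that could act on these receptors, and the enzymes that make or break them, were examined as a list of 13 genes besides *Adm*. Values were at hand for 10, of which 6 passed the filter and 4 were called by limma, 2 higher and 2 lower, where 24.7% and 26.1% of all genes tested were called in these directions. The list median was 0.11 on the log2 scale, against -0.0026 over all genes tested. The ligand genes themselves were all under the filter. *Calca*, which encodes calcitonin and CGRP, had 2.95 to 4.04 normalized reads in WT and 3.01 to 5.99 in N275D libraries, *Calcb* (the other CGRP gene) at most 2.02, and *Iapp* (amylin) 1 read in all 6 libraries together. *Adm2*, the gene for intermedin, had 4.04, 4.03 and 2.95 normalized reads in WT and 11.0, 5.02 and 6.91 in N275D libraries, and in a fit without the filter it was not called (log2 fold change 0.84, adjusted p = 0.0853 from limma).

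Among the peptide-processing genes, *Pcsk1*, a prohormone convertase that cuts peptide precursors, had 23.2, 19.2 and 14.7 normalized reads in WT and 51.9, 51.2 and 43.5 in N275D libraries. The genotypes did not overlap, and *Pcsk1* rose at a log2 fold change of 1.33 (SE 0.21, adjusted p = 5.93e-05 from limma). *Furin*, an abundant proprotein convertase, rose, with 21102 ± 991 normalized reads in WT against 23796 ± 238 (SD, n = 3 each; log2 fold change 0.17, adjusted p = 0.000756 from limma). The peptide-degrading enzymes *Ece1* (endothelin-converting enzyme) and *Ide* (insulin-degrading enzyme) both fell, each at a log2 fold change of -0.24 (adjusted p = 0.000191 and 0.000282 from limma). *Pam*, which puts the terminal amide on CGRP and adrenomedullin, had 66.7 ± 6.40 normalized reads in WT and 68.7 ± 3.38 in N275D cells (SD, n = 3 each; adjusted p = 0.796 from limma).

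Other receptors that can bind a RAMP, or adrenomedullin itself, were scarce. Of 12 listed, 9 had values, 7 of these were under the filter, and the 2 tested, *Casr* (the calcium-sensing receptor) and *Vipr1* (a receptor for vasoactive intestinal peptide), were not called. The count of 0 by limma was also 0 at an unadjusted p under 0.05, and 0 by edgeR and by DESeq2. *Casr* had 32.3, 24.2 and 25.5 normalized reads in WT and 18.97, 23.1 and 22.7 in N275D libraries, without overlap, at a log2 fold change of -0.32 (SE 0.22, adjusted p = 0.228 from limma). *Vipr1* had 15.1, 23.2 and 12.8 in WT and 12.98, 10.03 and 11.9 in N275D libraries, a log2 fold change of -0.48 (SE 0.30, adjusted p = 0.190 from limma). *Ackr3*, a scavenger receptor for adrenomedullin, had at most 1 read in any library.

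Downstream of the receptors, 27 genes of Gs, adenylyl cyclases, protein kinase A and the CREB factors were examined, and 22 passed the filter. By limma 8 were called higher and 5 lower, which is 59.1% of the list against 50.9% of all genes tested, and 13 of the 22 had genotypes that did not overlap, also 59.1% of the list, against 57.7% of all genes tested. The list median was 0.06 on the log2 scale. *Crem*, which encodes CREM and, from an internal promoter that cyclic AMP induces, the repressor ICER, had the largest log2 fold change in either direction of the 22 genes tested. Its libraries held 976, 921 and 865 normalized reads in WT and 2332, 2295 and 2383 in N275D libraries, with a wide gap between genotypes. The log2 fold change of *Crem* was 1.34 (SE 0.05, adjusted p = 4.50e-12 from limma), and among the 22 genes tested it was the only call that reached 2-fold. Gene totals do not tell the forms of *Crem* apart.

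*Creb1*, the activating counterpart, fell from 1398, 1467 and 1295 normalized reads in WT to 967, 1055 and 1091 in N275D libraries (log2 fold change -0.42, SE 0.06, adjusted p = 1.73e-05 from limma). The other 4 genes called lower, named after their values were seen, were *Prkar2a* (-0.32) and *Prkacb* (-0.18), subunits of protein kinase A, and *Crtc1* (-0.27) and *Crtc2* (-0.22), coactivators of CREB. Calls in the higher direction, likewise named afterwards, included *Gnas*, the Gs alpha gene (0.17), the cyclase gene *Adcy3* (0.25) and *Crebbp* (0.16). Their adjusted p-values from limma were 0.00101, 0.00675 and 0.0269. *Gnas* was abundant, with a mean of 10779 normalized reads in WT and 12140 in N275D libraries. The regulatory subunit genes *Prkar1b* (0.84, SE 0.23, adjusted p = 0.00546 from limma) and *Prkar2b* (0.43, SE 0.15, adjusted p = 0.0219 from limma) rose from low levels, 23.1 ± 6.38 and 60.7 ± 8.32 normalized reads in WT (SD, n = 3 each). *Prkar2b* lost its call under 5 of the alternatives tried, 2 of which each left out replicate 3 of one genotype (adjusted p = 0.0771 without that of WT and 0.122 without that of the N275D). *Gnal*, a Gs-type alpha subunit, rose at 0.68 (SE 0.10, adjusted p = 5.66e-05 from limma), from 88.3 ± 4.33 to 142 ± 9.19 normalized reads (SD, n = 3 each).

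Of the cyclases, *Adcy7* had the highest level, 318 ± 4.96 normalized reads per kb in WT and 318 ± 9.95 in N275D cells (SD, n = 3 each), and it was not called (log2 fold change SE 0.04, adjusted p = 0.992 from limma). *Adcy6* had 218, 192 and 183 normalized reads in WT and 345, 384 and 382 in N275D libraries, and it rose at a log2 fold change of 0.91 (SE 0.08, adjusted p = 2.20e-07 from limma). Per kb of exon *Adcy6* went from 29.1 ± 2.71 to 54.6 ± 3.22 normalized reads, which stayed below *Adcy7* in both genotypes. *Adcy5* had 10.1, 16.1 and 13.8 normalized reads in WT and 2.995, 7.02 and 2.96 in N275D libraries. It was under the filter, and in a fit without one it was lower at a log2 fold change of -1.49 (SE 0.36, adjusted p = 0.00659 from limma). *Adcy4*, also under the filter, had means of 8.001 and 3.66 normalized reads in WT and N275D cells, and was lower in that fit at -1.01 (SE 0.35, adjusted p = 0.0392 from limma). Of the 5 genes of the list under the filter, these 2 were called in that fit. Over all genes with a mean above 0, which number at most the 16244 of the table, that fit called 5886. These calls cover genes of every level and not only those under the filter, so the count of 2 is only a description.

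Receptor trafficking and desensitization genes were the last list, with 11 members and 10 tested. By limma 1 was called higher and 2 lower, which is 30.0% of the list against 50.9% of all genes tested, and the list median was 0.0029 on the log2 scale. *Arrb1*, which encodes a β-arrestin that uncouples and internalizes receptors, had 1311, 1372 and 1351 normalized reads in WT and 3320, 3483 and 3504 in N275D libraries. *Arrb1* rose at a log2 fold change of 1.35 (SE 0.04, adjusted p = 5.90e-13 from limma). *Arrb2*, the other β-arrestin, had 1427 ± 103 in WT and 1331 ± 45.5 in N275D cells (SD, n = 3 each), and it was not called (log2 fold change -0.10, SE 0.05, adjusted p = 0.137 from limma). *Grk2*, a kinase that phosphorylates activated receptors, fell at -0.24 (SE 0.03, adjusted p = 3.27e-05 from limma). *Grk6* fell at -0.10 (adjusted p = 0.0393 from limma), a call that was lost under 10 of the alternatives tried. *Crcp*, which encodes a protein that couples the CGRP receptor to its signalling, had 679 ± 29.7 and 720 ± 27.4 normalized reads (SD, n = 3 each; adjusted p = 0.223 from limma). *Slc9a3r1* and *Nsf*, whose products bind RAMP3 and steer its recycling, were not called (adjusted p = 0.132 and 0.466 from limma).

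**Figure D3:**
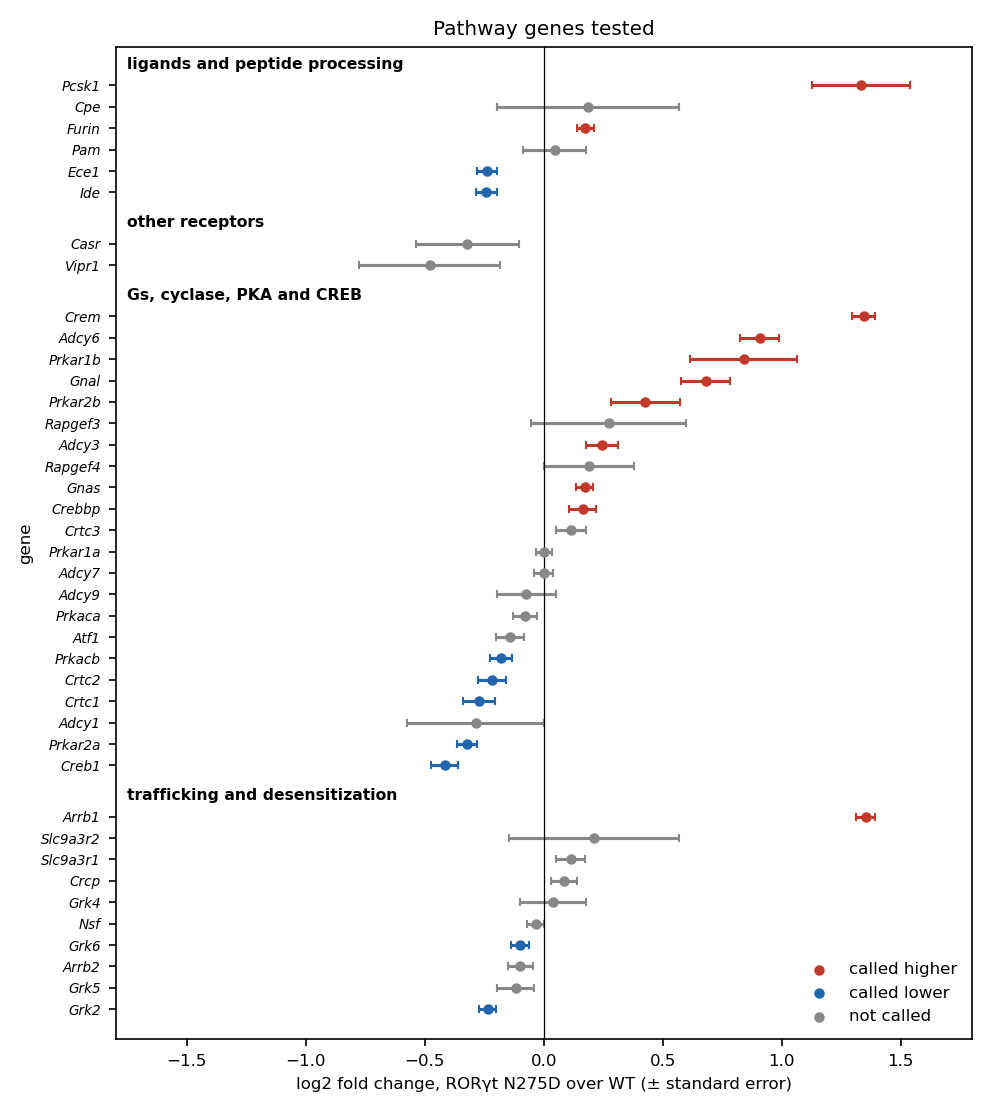
Log2 fold change (RORγt N275D over WT) with its standard error for the 40 pathway genes that passed the filter, in 4 groups, coloured by whether limma called them higher, lower or not at an adjusted p under 0.05. *Pcsk1*, *Crem* and *Arrb1* stand beyond 1, and 3 of the 4 groups spread to both sides of 0, while *Casr* and *Vipr1* both lie below it.

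The 3 nearest genes with values on each side of *Ramp3* on chromosome 11 were examined, to see whether the difference extended along the locus. Genes without values were passed over. *Tbrg4*, 32.4 kb away on the side of lower coordinates, had 2482 ± 125 normalized reads in WT and 2217 ± 64.2 in N275D cells (SD, n = 3 each; log2 fold change -0.16, adjusted p = 0.00660 from limma). *Ccm2*, 61.7 kb away on that side, was lower at -0.13 (adjusted p = 0.0368 from limma), a call lost under 9 of the alternatives tried. *Nacad*, which lies between them, was under the filter, with 1.01, 5.04 and 2.95 normalized reads in WT and 14.97, 10.03 and 13.8 in N275D libraries. In a fit without the filter *Nacad* was higher at an adjusted p of 0.00313 from limma. On the other side, *Adcy1* (386 kb) overlapped between genotypes and was not called (-0.29, SE 0.29, adjusted p = 0.431 from limma), and *Igfbp3* (529 kb) had 1 read in WT and 1 read in N275D libraries. *Tns3*, 1754 kb away, was higher at 0.99 (SE 0.31, adjusted p = 0.0136 from limma), from 27.3, 22.2 and 8.84 normalized reads in WT to 40.9, 35.1 and 32.6 in N275D libraries. Without WT replicate 3, the low WT library, the difference of *Tns3* was 0.53 (adjusted p = 0.0481 from limma), and without N275D replicate 1 the call was lost (adjusted p = 0.0586 from limma). Of the 4 neighbours tested, 1 was called higher and 2 lower, with *Ramp3* itself left out, where 50.9% of all genes tested were called in either direction.

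The profile of *Ramp3* over the 6 libraries was compared with that of every other gene tested, by the root mean square difference of the log2 values centred on each gene's mean. Of the 5 nearest genes, 4 are given here. *Stmn4* (a stathmin of microtubules) was closest, at 0.128, with 10.7 ± 1.52 normalized reads in WT and 67.1 ± 1.13 in N275D cells (SD, n = 3 each). *Rab4a*, a small GTPase of endosome recycling, was at 0.228, with 12.3 ± 0.697 and 118 ± 4.39 normalized reads. *Gm40453* (0.258) and *Mmp12* (0.263), a macrophage elastase, had means under 4 normalized reads in WT and 24.9 ± 4.78 and 19.6 ± 2.28 in N275D cells (SD, n = 3 each). Both passed the filter only through their N275D libraries, and the added 1 lowers the log2 differences of such low genes. On group means *Gm40453* was 12.4-fold, against 6.88-fold for *Ramp3*. This likeness is a description over 6 libraries that fall into 2 groups.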

How the data were processed

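The 6 libraries were grouped and numbered by their labels. Per the methods, the authors trimmed reads, used STAR for alignment to mm10 and featureCounts for counting, and ran DESeq2; versions are not given in the sources used here, and methods and labels name different library kits. The deposited signal values are read counts scaled by a single factor in each library: 100% were whole multiples of it (within 1e-06), which gave back the reads. The authors' deposited log2 fold changes, q-values and group averages were not used. Unused columns of per-sample values numbered 0.

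Log2(normalized reads + 1) was fitted with limma (version 3.58.1, R 4.3.3, trended prior, no block) for genes with a mean of at least 10. The code was also run on simulated data that had the same spread setting for every gene. That run checked the code only and does not show how the test behaves on these libraries. Because the table holds scaled values, edgeR (version 4.0.16) and DESeq2 (version 1.42.0) served only as alternatives, on those reads. Others were pseudocounts of 0.1 and 10, a minimum mean of 100 or none above 0, TMM and quantile normalization, eBayes without a trend, a replicate block, and omission of each library. Replicates differed by more than counting noise, but no source says whether they were separate cultures or animals, so p-values measure only the spread between these libraries, which may be technical.

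Members and lists were chosen with earlier results of these data known. The rule names the 6 members, up to 6 called genes per list by size of change, the 3 nearest genes with values on each side of *Ramp3* and the 5 profiles nearest to it. List genes that were not called, or were under the filter, were named after their values were seen. One gene that the rule names is not reported here. Coordinates are RefSeq GRCm38.p6 (16135 of 16244 genes matched), lengths GENCODE M21, and 5 of the 6 members matched the RefSeq promoter table. Intervals and limits cover counting error only.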

Additional observations from a re-analysis of the deposited data

How the results depend on the processing

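*Ramp3* kept its direction under each of the 16 alternatives, with a log2 difference between 2.67 and 2.82, and *Calcrl* kept its own, between -0.31 and -0.21. Leaving out 1 library at a time gave 2.69 to 2.82 for *Ramp3*, -0.31 to -0.21 for *Calcrl*, 0.05 to 0.12 for *Ramp1* and 0.22 to 0.88 for *Adm*. *Ramp1* moved beyond its replicate spread under quantile normalization (-0.13). That spread was small, with SDs of 1.16 in WT and 1.21 in N275D cells against counting SDs of 5.03 and 5.18 normalized reads. No value was had for *Ramp1* or *Adm* at a mean of at least 100. The calls at 2-fold over all genes numbered 427, against 259 with a pseudocount of 10, 703 with every gene with a mean above 0 and 162 with a mean of at least 100. The 3 calls among the genes beside *Ramp3* became 0 under quantile normalization, 1 in eBayes without a trend and 1 to 3 when a library was left out, with 1 without mutant replicate 1. The cause of these shifts was not tested. Of the 17 list and neighbour genes followed, 12 kept their call throughout. *Tns3* lost its call under 3 alternatives, among them without mutant replicate 1 (adjusted p = 0.0586 from limma), and *Tbrg4* under quantile normalization. Same-numbered libraries of the 2 genotypes did not deviate together (correlations of -0.0455, 0.0407 and -0.0828), so the numbers were not taken to pair them, and with a replicate block 5727 genes were called in place of 6056 and 428 at 2-fold. The depth leaves *Ramp2*, *Calcr* and the ligand genes at or near single reads.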
